A study of Mus musculus with 12 samples.

Results

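The genes described here are those of the insulin-like growth factor (IGF) axis in dormant and growing mouse mammary tumour cells. They are the ligand Igf1, the receptors Igf1r and Igf2r, and the binding proteins Igfbp2, Igfbp3, Igfbp4, Igfbp5, Igfbp6 and Igfbp7. These 9 genes were taken by their exact symbol from a table of 54146 genes, and all 9 passed the filter on low values that left 13002 genes for testing. Igfbp5 and Igfbp7 passed that filter through the KO groups, and Igfbp2 and Igfbp3 only with the dormant KO libraries, the group where they are high, so the tests of these 2 genes are given as a description.

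D2A1 is a mouse mammary carcinoma line that was made to express a histone fused to green fluorescent protein under doxycycline control, stained with a membrane dye that is diluted by cell division (CellVue Claret), and injected into the tail vein of female mice. Labelled cells sorted from the lungs gave 4 groups of 3 libraries, namely dormant (dye retained) and growing (dye lost) tumour cells from WT hosts and the same from Tgfbr2 KO hosts. In KO hosts the TGF-β (transforming growth factor beta) receptor gene Tgfbr2 was deleted in the cells in which the lysozyme 2 promoter drives Cre, which are mainly macrophages and neutrophils, so the deletion was in the host and not in the tumour cells. WT is the name in the labels; the study's methods also describe these controls as mice with floxed Tgfbr2. The day of sorting differs between places in the study's text and is not given here. All WT libraries were named as library batch 1 and all KO libraries as batch 2, so host and library batch cannot be told apart, whereas dormant and growing cells of 1 host shared a batch.

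IGF1 and IGF2 are small secreted ligands that activate the IGF1 receptor, a tyrosine kinase upstream of PI3K and AKT, and so promote growth and survival. The IGF2 receptor, which is also the cation-independent mannose 6-phosphate receptor, carries IGF2 and lysosomal enzymes to lysosomes and has no kinase of its own. The IGF binding proteins hold IGFs outside the cell, which can limit or prolong their action, and in the lung they are made largely by stromal, mesothelial, endothelial and epithelial cells.

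Levels are in TPM, a relative measure of transcript abundance that corrects for gene length and gives every library the same total, so that every level is a share of its library. The number of genes above 0 was 11325 to 13242 in dormant WT, 14770 to 15315 in dormant KO, 14352 to 14475 in growing WT and 13406 to 14063 in growing KO libraries. The dormant KO libraries stood apart from the other 9 in their cell type markers. Summed TPM of 10 alveolar type 2 genes was 40207 to 42496 in dormant KO libraries, and at most 472 in any other library. The sum of 10 mammary tumour cell genes, made up mostly of Spp1, was 1875 to 2299 in dormant KO libraries and at least 30471 in the others. The epithelial genes of that list differed among themselves. Krt5 and Krt14 were listed at 0 in all 9 libraries outside the dormant KO group, and in those libraries Epcam and Cdh1 did not exceed 1.12 and 1.88 TPM. Krt7 was listed at 0 in the WT libraries and at 0.03 to 2.18 TPM in growing KO libraries, against 29.6 to 61.5 TPM in dormant KO libraries. Krt8 and Krt18 were present in all 9 libraries outside the dormant KO group, at 153 to 381 TPM and 131 to 519 TPM. No comparison that includes dormant KO libraries can be given without them. The comparison of growing KO with growing WT cells takes its means from other libraries, but the fit shares its estimate of the spread with the dormant libraries.

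The 250 bases upstream of the start sites of Igfbp3, Igfbp5, Igfbp6 and Igfbp7 are shown first because these genes were called higher in dormant KO cells and differ in whether they hold the KLF4 binding motif that the study used (CCCCACCC, or GGGTGGGG on the other strand). Each sequence is from RefSeq on GRCm38.p6, reads 5′ to 3′ on the strand of the gene and ends at the base before the RefSeq start, with the motif in capitals. The Igfbp3 window is chr11:7213924-7214173 (minus strand), that of Igfbp5 chr1:72874866-72875115 (minus), that of Igfbp6 chr15:102143936-102144185 (plus) and that of Igfbp7 chr5:77408046-77408295 (minus).
Igfbp3: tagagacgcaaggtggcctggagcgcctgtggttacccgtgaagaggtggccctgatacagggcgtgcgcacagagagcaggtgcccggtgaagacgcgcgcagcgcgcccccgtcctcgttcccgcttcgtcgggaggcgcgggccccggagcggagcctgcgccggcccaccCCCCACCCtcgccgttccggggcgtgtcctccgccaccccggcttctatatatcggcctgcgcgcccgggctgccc
Igfbp5: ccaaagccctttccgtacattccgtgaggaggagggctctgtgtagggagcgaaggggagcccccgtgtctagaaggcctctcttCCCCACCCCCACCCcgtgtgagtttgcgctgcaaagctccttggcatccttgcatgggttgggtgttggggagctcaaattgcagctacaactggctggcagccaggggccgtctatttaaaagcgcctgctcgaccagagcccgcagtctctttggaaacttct
Igfbp6: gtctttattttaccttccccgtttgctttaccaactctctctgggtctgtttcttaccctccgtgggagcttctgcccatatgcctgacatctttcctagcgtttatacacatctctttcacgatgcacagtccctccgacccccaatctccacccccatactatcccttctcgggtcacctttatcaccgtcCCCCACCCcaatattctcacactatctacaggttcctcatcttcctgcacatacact
Igfbp7: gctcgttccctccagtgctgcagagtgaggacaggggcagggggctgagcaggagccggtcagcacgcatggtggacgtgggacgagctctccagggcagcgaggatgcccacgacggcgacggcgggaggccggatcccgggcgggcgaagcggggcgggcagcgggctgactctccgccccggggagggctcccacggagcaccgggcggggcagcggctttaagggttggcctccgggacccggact

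The motif began 76 bases before the start of Igfbp3 and 57 bases before that of Igfbp6. In Igfbp5 it occurred at 2 positions that overlap, beginning 165 and 159 bases before the start. It was not found in the windows of the other 6 genes, so that of the 5 genes called higher in dormant KO cells 3 held it, and Igfbp7 and Igfbp2 (2 windows, not shown) did not. The motif is present in 9.05% of all 32851 windows of this length. The 5 genes were picked by their calls in these data, and Igfbp2 and Igfbp3 had to differ to be tested, so nothing is read from the 3 that held it. The Igfbp4 window (chr11:99040994-99041243, plus strand), shown because Igfbp4 was the binding protein that was lower in dormant KO cells, holds no copy of the KLF4 motif but a TATA box (TATAAA, in capitals) that begins 28 bases before its start.
Igfbp4: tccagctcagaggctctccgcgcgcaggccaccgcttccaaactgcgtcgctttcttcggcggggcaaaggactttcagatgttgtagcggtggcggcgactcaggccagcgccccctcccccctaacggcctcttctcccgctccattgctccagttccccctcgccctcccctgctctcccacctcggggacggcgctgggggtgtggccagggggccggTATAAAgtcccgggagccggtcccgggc

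TATAAA on either strand occurs in 12.4% of all windows. Of the 9 genes it was otherwise found only in that of Igfbp6, on the opposite strand and 148 bases before the start. A match of letters is not evidence that a factor binds. The RefSeq start lies 176 bases before the start of the GENCODE gene for Igfbp6 and 570 before it for Igf1r, and 2846 bases inside the gene for Igf1 and 884 for the second Igfbp2 window. For the other 6 windows the starts differ by 42 bases at most, so the matches above depend on the annotation.

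In the GENCODE annotation of GRCm38, Igfbp2 (chr1:72824503-72852474, plus strand) and Igfbp5 (chr1:72857932-72874884, minus strand) are adjacent, with 5457 bp and no other gene between their 3′ ends. Igfbp3 (chr11:7206086-7213923, minus) lies next to Igfbp1, with a gap of 3539 bp. The remaining binding protein genes are Igfbp4 (chr11:99041244-99054392), Igfbp6 (chr15:102144362-102149511) and Igfbp7 (chr5:77349240-77408041). Igf1 is at chr10:87858265-87937042, Igf1r at chr7:67952827-68233668 and Igf2r at chr17:12682406-12769664. Igf1 overlaps Igf1os, Igf2r overlaps Airn, and Igfbp7 overlaps Polr2b and Gm34648, each on the opposite strand. Whether counting used strand was not stated, so reads of these partners cannot be told apart from those of Igf1, Igf2r and Igfbp7.

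Dormant KO cells were first compared with dormant WT cells, to ask how the IGF axis of tumour cells that retain the dye differs with deletion of Tgfbr2 in host myeloid cells. Igfbp2, Igfbp3, Igfbp5, Igfbp6 and Igfbp7 were higher in dormant KO cells, and Igf2r and Igfbp4 were lower. Igfbp5 and Igfbp7 were listed at or next to 0 in dormant WT libraries and lay between 191 and 258 TPM in dormant KO libraries, and Igfbp6 rose from an already high level to become one of the most abundant transcripts. A gene was called where its adjusted p (limma, Benjamini-Hochberg over 13002 genes) was at most 0.05 and its difference in log2(TPM + 1) at least 1. By this rule 5 of the 9 genes were higher and 2 lower, against 12.9% of all genes tested higher and 9.39% lower. The 5 include Igfbp2 and Igfbp3, which had to differ to be tested, so nothing is read from this count. The median difference was 2.76 over the 9 genes, among them Igfbp2 and Igfbp3, and 0.17 over all genes, and the same limit applies to it. In bulk libraries, a change in the number of cells of a type and a change in RNA per cell cannot be told apart.

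Igf1, the main circulating and local ligand, had listed levels of 17.49, 0 and 0 TPM in dormant WT replicates 1, 2 and 3, against 8.70, 31.36 and 24.82 TPM in dormant KO replicates. The groups overlapped through dormant WT replicate 1. Igf1 was not called (log2 difference 2.93, SE 1.04, limma adjusted p = 0.0632), but was called without dormant WT replicate 1 (4.33, adjusted p = 0.000993). A value of 0 may be a failed estimate here, since the widely used genes Mtor, Akt1 and Akt2 were also listed at 0 in dormant WT replicate 2.

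Igf1r, the signalling receptor, was low throughout. Its levels were 4.57, 0.53 and 3.77 TPM in dormant WT cells, against 2.46, 1.16 and 1.62 TPM in dormant KO cells. The groups overlapped and Igf1r was not called (-0.35, SE 0.55, adjusted p = 0.704). The direction of this difference turned to 0.01 under median-ratio scaling.

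Igf2r, the receptor that clears IGF2, reached 24.85, 18.97 and 28.28 TPM in dormant WT libraries, while dormant KO libraries held 1.74, 2.26 and 2.34 TPM. Every dormant WT library was above every other library of the series. Mean Igf2r in dormant KO cells was 0.0879 times that in dormant WT cells, and the fall was called (-2.99, SE 0.46, limma adjusted p = 0.000568). Transcripts of Gm10800 also differed between the dormant groups, at 7582, 14906 and 10804 TPM in dormant WT replicates 1, 2 and 3 (with replicate 2, the lowest in Igf2r, the highest), at 14.05 to 21.86 TPM in dormant KO and at no more than 3.97 TPM in growing libraries, and the part of these libraries' composition in the Igf2r difference was not tested.

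Among the binding proteins, Igfbp6, which prefers IGF2 over IGF1, was the most abundant in every group. It measured 311.29, 245.29 and 276.96 TPM in dormant WT libraries, against 1694.07, 2159.88 and 1823.90 TPM in dormant KO libraries. The groups were far apart, with a mean of 278 TPM ± 33.0 (SD, n = 3) against 1893 TPM ± 240 (SD, n = 3), a ratio of 6.81. The log2 difference was 2.76 (SE 0.16, limma adjusted p = 9.3e-07). Ordered by TPM within its library, Igfbp6 was the transcript at rank 81, 49 and 73 in dormant KO libraries and at rank 552 to 678 in dormant WT libraries.

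Igfbp5, a binding protein that attaches to extracellular matrix, was listed at 0, 0 and 0.01 TPM in dormant WT libraries, whereas dormant KO libraries held 212.34, 243.99 and 211.31 TPM. Igfbp7, a secreted protein of low IGF affinity that is prominent in endothelium, was listed at 0 in all dormant WT libraries, whereas the dormant KO libraries held 191.14, 199.28 and 258.44 TPM. Both were called higher, with limma adjusted p = 2.45e-06 for Igfbp5 and 1.5e-06 for Igfbp7. No fold is given for these genes because the dormant WT group was at or next to 0. In the dormant KO group their levels overlapped each other, and both lay below Igfbp6 and above the remaining 6 genes.

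Igfbp2, which is abundant in fetal and epithelial tissue, and Igfbp3, the main carrier of IGFs in serum, were also listed at 0 in all dormant WT libraries. Igfbp2 reached 18.46, 13.40 and 29.97 TPM in dormant KO libraries (limma adjusted p = 0.00118). Igfbp3 reached 4.55, 7.10 and 4.21 TPM (adjusted p = 0.00327). These values are descriptive, as both genes passed the filter only with the dormant KO libraries. Both genes were thus present in every dormant KO library, at levels below those of Igfbp5, Igfbp6 and Igfbp7. With libraries weighted by their quality neither passed the threshold, at adjusted p = 0.0501 for Igfbp2 and 0.107 for Igfbp3.

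Igfbp4, an inhibitory binding protein that is cut by the protease PAPP-A, moved the other way. Its levels of 136.09, 41.18 and 107.10 TPM in dormant WT libraries compare with 20.64, 11.39 and 17.47 TPM in dormant KO libraries. The groups did not overlap, although dormant WT replicate 2 was low, and the difference was called (-2.33, SE 0.43, limma adjusted p = 0.00197). Igfbp4 in the 3 dormant KO libraries was below its level in all other 9 libraries, whereas Igfbp2, Igfbp3, Igfbp5, Igfbp6 and Igfbp7 were each above theirs. The share of all genes tested that stood apart in this way was not taken, so this separation is given as a description. For a single gene, 3 against 3 libraries allow no exact permutation p (two-sided) below 0.1, which was the value for each of the 7 genes called.

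**Figure D1:**
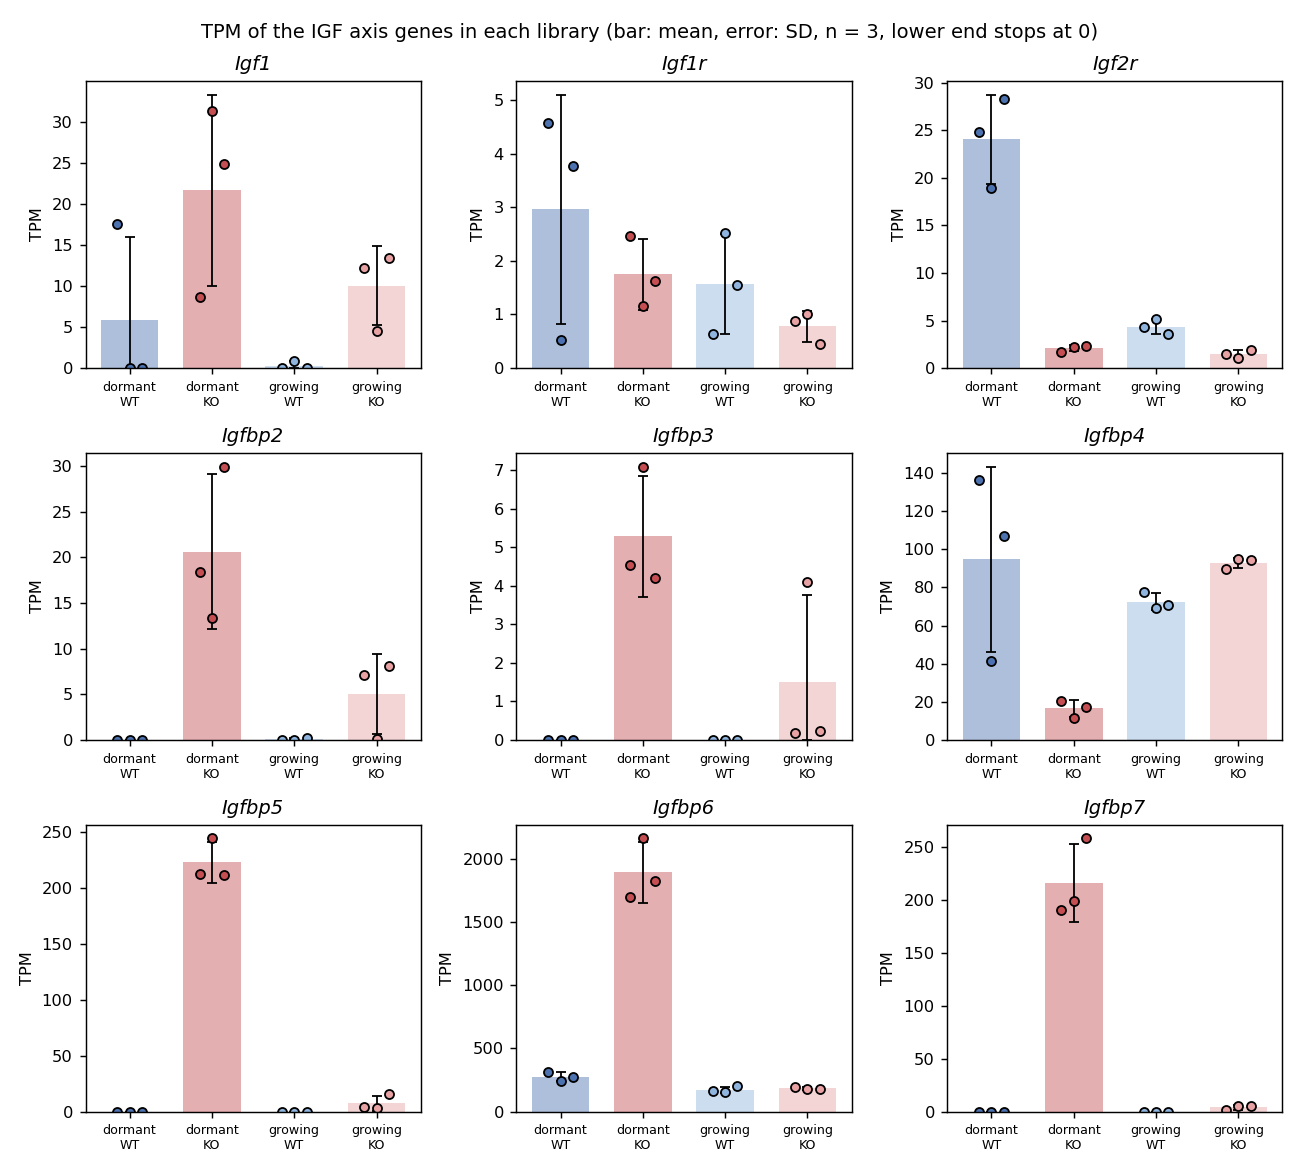
TPM (vertical axes, a separate scale for each gene) of the 9 IGF axis genes in the 3 libraries of each group (points), with the group mean (bar) and SD (line). Igfbp2, Igfbp3, Igfbp5, Igfbp6 and Igfbp7 are highest in the 3 dormant KO libraries, Igfbp4 is lowest there, and Igf2r is highest in the 3 dormant WT libraries, at 18.97 to 28.28 TPM.

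The summed TPM of each lung cell marker list was also higher in dormant KO libraries, although some genes of the lists went the other way. All 8 mesothelial genes listed, which mark the lining of the lung surface, were called higher in dormant KO cells, as were 9 of 12 endothelial, 7 of 12 fibroblast, 8 of 10 alveolar type 2 and 7 of 8 alveolar type 1 genes. Called higher were also 2 of 12 macrophage genes (11 tested), 2 of 8 pericyte and smooth muscle genes (4 tested) and 3 of 8 club and ciliated cell genes (5 tested), and 2 mammary tumour cell genes were higher and 2 lower of 10 (8 tested). Summed mesothelial TPM was 0 to 55.6 in dormant WT and 1662 to 2193 in dormant KO libraries, and Upk3b, Wt1, Lrrn4, Nkain4, Upk1b and Gpm6a were listed at 0 in all dormant WT libraries. The fibroblast sum was 236 to 264 against 1925 to 2226, with Col3a1, Mfap4 and Tcf21 at 0 in dormant WT libraries. In dormant KO libraries it was mostly Dcn and Inmt (means of 1172 and 561 TPM). The fibroblast genes Lum, Pdgfra, Fbln1 and Gsn went the other way, with none of them called. The endothelial sum was 15.9 to 161 against 1177 to 1289, with Emcn at 0 in dormant WT libraries. The alveolar type 1 sum was 256 to 383 against 1615 to 2056 TPM. The pericyte and smooth muscle sum was 0 to 19.1 against 51.7 to 132 TPM (Acta2, Myh11, Tagln and Rgs5 at 0 in dormant WT). The club and ciliated sum was 8.58 to 305 against 1866 to 2451 TPM (Foxj1 and Ccdc39 at 0 in dormant WT). The macrophage sum was 2033 to 2240 against 3907 to 4324 TPM, most of it Lyz2 in dormant KO libraries (mean 2898 TPM). Of the 11 macrophage genes tested 6 had a positive difference, while Adgre1, Mrc1, C1qa, C1qb and C1qc had a negative one. Of all genes tested 12.9% were called higher and 9.39% lower. Some of the markers, among them Wt1, Lrrn4, Tcf21 and Slc34a2, passed the filter only with the dormant KO libraries, so nothing is read from the marker counts. The part of these cells in the levels of Igfbp2, Igfbp3, Igfbp5, Igfbp6 and Igfbp7 was not tested.

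**Figure D2:**
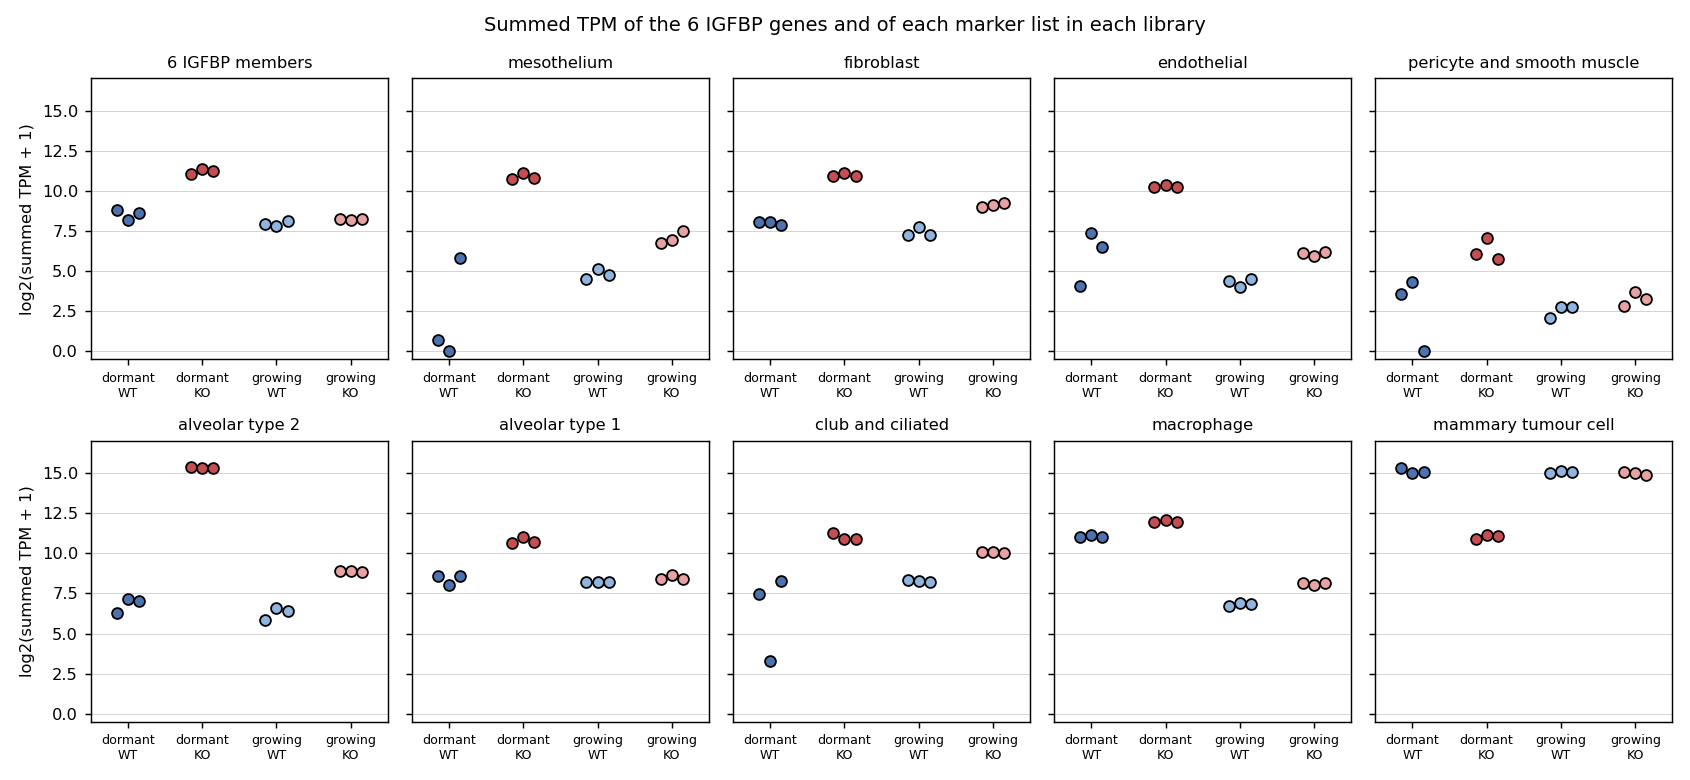
Summed TPM of the 6 binding protein genes and of each cell type marker list, as log2(summed TPM + 1) on a common vertical axis, for each library (points) in the 4 groups. The binding protein sum and the lung cell sums are highest in the dormant KO libraries, where the mammary tumour cell sum is lowest at 1875 to 2299 TPM.

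In growing cells the same host comparison gave fewer calls. Igfbp5 was the single gene called, higher in growing KO cells, so that 1 of 9 genes was higher and 0 lower against 0.715% of all genes higher and 0.261% lower. At an unadjusted p under 0.05, limma gave 5 of the 9 genes and 7.53% of all genes tested. Fitted on the 6 growing libraries alone, Igf1 (3.03, limma adjusted p = 0.0432) and Igfbp7 (2.25, 0.0485) were called higher and Igfbp5 was not (0.0523), so the genes called depend on which libraries set the spread. The median difference was 0.96 over the 9 genes and 0.02 over all genes.

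Igfbp5 was listed at 0 in all growing WT libraries, whereas growing KO libraries held 4.14, 3.62 and 15.41 TPM (limma adjusted p = 0.0301). These levels are far below the 211 TPM or more of the dormant KO libraries, and growing KO replicate 3 was the highest. The call was lost in 8 of the 12 fits that left out 1 library, with adjusted p from 0.0514 (without dormant KO replicate 3) to 0.145 (without growing WT replicate 3), and without each of the 3 growing KO or growing WT replicates in turn. It was kept without each of the dormant WT replicates and without dormant KO replicate 2.

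Igfbp7 was listed at 0.03, 0 and 0.04 TPM in growing WT libraries, against 1.67, 5.33 and 5.81 TPM in growing KO libraries. The groups did not overlap, and the difference of 2.25 (SE 0.51) had an adjusted p of 0.0752 by limma. Igf1 showed the same arrangement, at 0, 0.92 and 0 against 12.16, 4.55 and 13.40 TPM, with a difference of 3.03 (SE 1.04, adjusted p = 0.371). Igfbp2 was at 0, 0 and 0.25 against 7.08, 0.06 and 8.09 TPM (1.99, SE 0.74, adjusted p = 0.454), overlapping through growing KO replicate 2, without which it was called (adjusted p = 0.0396). Igfbp3 was listed at 0 in all growing WT libraries and had 0.18, 4.10 and 0.22 TPM in growing KO libraries (adjusted p = 0.839), so that its level rested on growing KO replicate 2.

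The abundant binding proteins did not pass the threshold between growing groups. Igfbp6 measured 163.18, 155.70 and 200.21 TPM in growing WT libraries, against 195.44, 176.80 and 180.92 TPM in growing KO libraries, with a difference of 0.10 (SE 0.16, adjusted p = 1). Igfbp4 was at 77.80, 69.10 and 70.79 against 89.70, 94.77 and 94.23 TPM (0.35, SE 0.43, adjusted p = 1). The Igfbp4 groups did not overlap, and mean Igfbp4 was 1.28 times higher in growing KO cells, opposite in direction to the dormant cells.

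Among the receptors, Igf2r measured 4.28, 5.17 and 3.60 TPM in growing WT libraries, while growing KO libraries held 1.48, 1.11 and 1.94 TPM. The groups did not overlap and the mean ratio was 0.347, but Igf2r was not called (-1.09, SE 0.46, limma adjusted p = 0.566). Igf1r was at 0.64, 2.51 and 1.55 against 0.88, 1.01 and 0.45 TPM, and the groups overlapped (adjusted p = 1). Lung cell markers were also above their growing WT levels in growing KO libraries, at 105 to 176 against 21.1 to 33.4 summed TPM for mesothelial, 496 to 599 against 147 to 209 for fibroblast, 58.9 to 70.8 against 14.8 to 21.3 for endothelial, 465 to 472 against 55.9 to 97.6 for alveolar type 2, 256 to 288 against 104 to 120 for macrophage and 1049 to 1099 against 292 to 322 for club and ciliated cell genes. Called higher were 3 of 8 mesothelial, 2 of 12 fibroblast, 0 of 12 endothelial (3 at an unadjusted p under 0.05), 2 of 10 alveolar type 2, 3 of 12 macrophage (11 tested) and 1 of 8 club and ciliated cell genes (5 tested). Alveolar type 1 genes summed to 337 to 394 against 291 to 301 TPM (0 of 8 called, 2 at an unadjusted p under 0.05, with Akap5 at 0 in growing KO libraries), and pericyte and smooth muscle genes to 6.01 to 11.7 against 3.22 to 5.79 TPM (0 of 8 called, 4 tested, 2 at an unadjusted p under 0.05). None of the 10 mammary tumour cell genes (8 tested) was called (1 at an unadjusted p under 0.05). These counts are by limma, and the part of these cells in the levels of Igfbp5 and Igfbp7 was not tested.

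**Figure D3:**
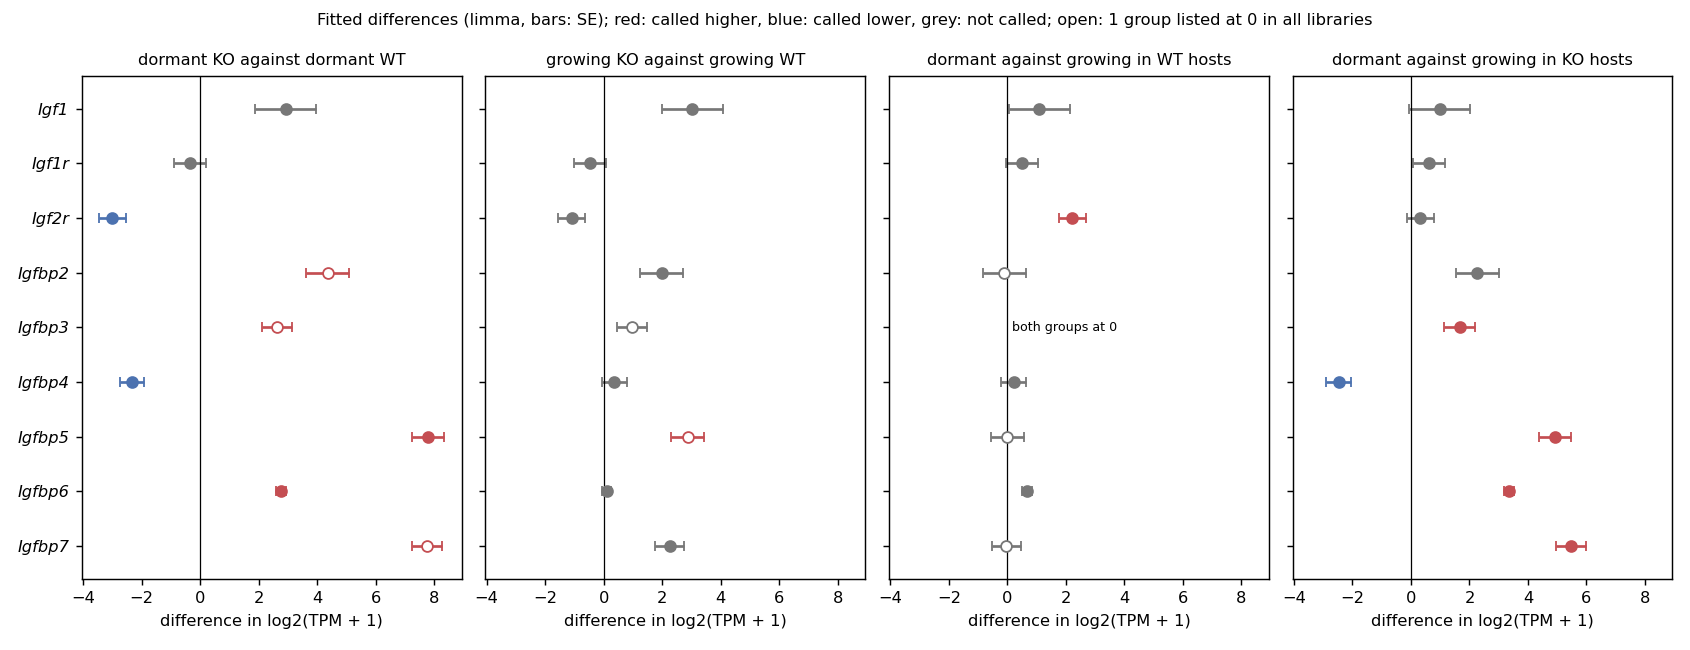
Differences in log2(TPM + 1) from limma with their SE (horizontal axes, common scale) for the 9 genes in 4 comparisons, with 3 libraries per group. Genes called higher are red, those called lower blue and those not called grey, and an open symbol marks a gene listed at 0 in all libraries of 1 group, for which the difference is not a fold. Of the 9 genes, 7 are called in dormant KO against dormant WT cells and 1 each in growing KO against growing WT and in dormant against growing cells of WT hosts.

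Dormant and growing cells were then compared within each host, where both states share the library batch. In WT hosts, Igf2r was the single gene called, so that 1 of the 9 genes was higher and 0 lower in dormant cells, against 1.85% of all genes higher and 5.67% lower. The median difference was 0.22 over the 9 genes and -0.35 over all genes.

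In WT hosts Igf2r in dormant cells, at 18.97 to 28.28 TPM, was 5.53 times its level in growing cells, at 3.60 to 5.17 TPM. The groups did not overlap (log2 difference 2.22, SE 0.46, limma adjusted p = 0.0129). The call was lost without growing WT replicate 1 (adjusted p = 0.0543) and without growing WT replicate 3 (adjusted p = 0.0638), with differences of 2.21 and 2.11, and with array weights (2.27, adjusted p = 0.0861). Igfbp6 was also higher in every dormant WT library than in any growing WT library, 1.61 times by the means, but its difference of 0.68 (SE 0.16, adjusted p = 0.0266) was under the 1 required for a call. Igfbp4 overlapped between dormant and growing WT libraries (0.22, adjusted p = 0.813), and without dormant WT replicate 1 its direction turned (-0.12). Igfbp2, Igfbp3, Igfbp5 and Igfbp7 were at or near 0 in both states in WT hosts, none of them above 0.25 TPM. Igf1 and Igf1r overlapped between the states (adjusted p = 0.57 and 0.641). Macrophage genes differed between these groups, with a summed TPM of 2033 to 2240 in dormant and 104 to 120 in growing WT libraries and 8 of 12 called higher (11 tested), and their part in the Igf2r difference was not tested.

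In KO hosts the contrast of dormant with growing cells was broader. Igfbp3, Igfbp5, Igfbp6 and Igfbp7 were higher and Igfbp4 was lower in dormant cells, so that 4 of 9 genes were higher and 1 lower, against 8.31% of all genes higher and 9.48% lower. The 4 include Igfbp3, which had to differ to be tested, so nothing is read from this count. The median difference was 1.67 over the 9 genes and -0.32 over all genes. That median is the value of Igfbp3 itself, so nothing is read from it either. This comparison shares its dormant KO libraries with the host comparison above.

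Mean Igfbp7 was 50.7 times higher in dormant than in growing KO cells (5.47, SE 0.51, limma adjusted p = 3.05e-05). Mean Igfbp5 was 28.8 times higher (4.93, SE 0.55, adjusted p = 0.000108). Igfbp6, from its higher starting level, was 10.3 times higher (3.35, SE 0.16, adjusted p = 2.41e-07). None of these genes overlapped between the states in KO hosts. Igfbp3, given as a description, was called narrowly (1.67, SE 0.52, adjusted p = 0.0445), and the call was lost in 8 of the 12 fits that left out 1 library, among them each of the 3 dormant KO replicates, with adjusted p up to 0.16, and in 4 of 8 other settings. Igfbp2 did not overlap between the states, but was not called (2.27, SE 0.74, adjusted p = 0.0531); it was called without dormant WT replicate 2 (0.0485), growing KO replicate 1 (0.0441) or growing KO replicate 3 (0.0336), and in 6 of 9 other settings. Without growing KO replicate 2, where Igfbp2 was at 0.06 TPM, its difference fell to 1.26 (limma adjusted p = 0.158).

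Igfbp4 in dormant KO cells was 0.178 times its level in growing KO cells (-2.46, SE 0.43, limma adjusted p = 0.00179). Igf1, Igf1r and Igf2r were not called between the states in KO hosts, with adjusted p of 0.573, 0.498 and 0.687. Igf2r measured 1.74 to 2.34 TPM in dormant and 1.11 to 1.94 TPM in growing KO libraries, so the level seen in dormant WT cells was not present in either state of the KO hosts. Called higher, in the same direction as Igfbp5, Igfbp6 and Igfbp7, were 7 of 8 mesothelial, 10 of 12 endothelial, 8 of 10 alveolar type 2, 6 of 8 alveolar type 1, 9 of 12 macrophage (11 tested) and 2 of 8 pericyte and smooth muscle genes (4 tested). Of 12 fibroblast genes 5 were higher and 1 lower, and of 10 mammary tumour cell genes (8 tested) 1 was higher and 4 were lower. Of 8 club and ciliated cell genes (5 tested) 0 were called, also at an unadjusted p under 0.05, and the part of these cells in the levels of the binding proteins was not tested. Some of these markers passed the filter only with the dormant KO libraries, so nothing is read from their counts.

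The difference between the hosts in the dormant against growing contrast was tested directly as an interaction. Igfbp5, Igfbp6 and Igfbp7 were called higher and Igfbp4 lower, that is 3 of 9 genes higher and 1 lower, against 6.18% of all genes higher and 3.91% lower. The interaction was 5.50 (SE 0.72, limma adjusted p = 0.000841) for Igfbp7, 4.93 (SE 0.78, adjusted p = 0.0027) for Igfbp5 and 2.66 (SE 0.23, adjusted p = 5.89e-05) for Igfbp6. It was -2.68 (SE 0.60, adjusted p = 0.0153) for Igfbp4. In the interaction 7 of 8 mesothelial, 7 of 8 alveolar type 1, 7 of 10 alveolar type 2, 5 of 12 endothelial, 4 of 12 fibroblast and 2 of 8 pericyte and smooth muscle genes (4 tested) were also called higher. Of 12 macrophage genes (11 tested) 3 were lower, of 10 mammary tumour cell genes (8 tested) 1 was higher and 2 were lower, and of 8 club and ciliated cell genes (5 tested) 0 were called (1 at an unadjusted p under 0.05). Some of these markers passed the filter only with the dormant KO libraries, so nothing is read from their counts. The part of these cells in the interaction of the binding proteins was not tested. Igf2r, which was called between the states in WT hosts and not in KO hosts, was not called in the interaction (-1.90, SE 0.64, limma adjusted p = 0.0908). It was called with a pseudocount of 5 (-1.50, 0.0329) and with no filter (-1.90, 0.0436), so a difference of its state contrast between the hosts rests on these settings.

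The order of the 9 genes within a group differed between the hosts in both states. In dormant WT, growing WT and growing KO cells, Igfbp6 was highest and Igfbp4 second, and both were apart from each other and from the next gene in all libraries. Igf2r came next in dormant WT and growing WT cells, apart from the gene after it. In growing KO cells the genes after Igfbp4, from Igf1 to Igf1r in order of their means, each overlapped their neighbour, with Igf2r below Igf1, Igfbp5, Igfbp2 and Igfbp7. In dormant KO cells Igfbp6 was again highest, followed by Igfbp5 and Igfbp7, which overlapped each other, then Igf1, Igfbp2 and Igfbp4, which overlapped in turn, then Igfbp3, and then Igf2r and Igf1r, which overlapped. The 6 binding proteins together came to 286 to 447 TPM in dormant WT, 2141 to 2635 TPM in dormant KO, 225 to 271 TPM in growing WT and 285 to 305 TPM in growing KO libraries. Igfbp6 made up 69.6 to 85.6% of that sum in dormant WT, 77.8 to 82.0% in dormant KO, 67.7 to 73.8% in growing WT and 59.4 to 65.5% in growing KO libraries. The Igfbp6 share in dormant WT cells thus spanned a range that overlapped that of dormant KO cells.

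Over the 12 libraries, Igfbp5 and Igfbp7 had the most similar patterns of any pair among the 9 genes (Pearson r = 0.99 on log2(TPM + 1)). The other tested genes most like Igfbp5 were Efemp1, RP23-410I12.2 and Gpx7 (r from 0.993 to 0.994). Those most like Igfbp7 were Cldn15, Slurp1 and Aldh1a2 (r from 0.992 to 0.994). Slurp1 was at 666, 742 and 799 TPM in dormant KO libraries, and at no more than 6.62 TPM in any other library. For Igfbp6 the leading genes were RP24-272D15.1, Tceal1 and the haemoglobin gene Hba-a2 (r from 0.982 to 0.984). Hba-a2 was at 19716 to 21391 TPM in dormant KO libraries and at 2657 to 5042 TPM elsewhere. All r values share the same 12 libraries and the gap between dormant KO and the rest, and between 129 and 169 genes exceeded r = 0.95 with each of Igfbp5, Igfbp6 and Igfbp7.

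Other members followed different genes. Igf2r was closest to the chromatin regulators Kmt2d (r = 0.987) and Crebbp (0.975) and to the receptor Notch2 (0.977), each highest in the 3 dormant WT libraries. Igfbp2 was closest to Rasl11a, Wfdc1 and Cxcl3 (0.986 to 0.995), and Igfbp3 to Flot2, Arl11 and Sele (0.969 to 0.992). Igfbp4 was closest to RP23-381B19.2, Nup88 and Snd1 (0.965 to 0.968). Igf1 (Ptgfrn, RP23-362N19.4 and Retnia, 0.926 to 0.942) and Igf1r (Abca3, Bcl2l11 and Syne1, 0.868 to 0.883) had no gene above 0.95.

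The rest of the pathway was described with 50 further genes (ligands, receptors, adaptors, kinases and targets), of which 35 were tested. Between dormant KO and dormant WT cells 6 (17.1%) were called higher and 3 (8.57%) lower, beside 12.9% and 9.39% of all genes, with a median difference of 0.01 beside 0.17 over all genes. As 5 of the 6 genes higher passed the filter only through the dormant KO libraries, nothing is read from this count. Ins1, Ins2, Insrr, Igfbp1, Igfals, Igfbpl1 and Irs4 were listed at 0 in all 12 libraries. Pappa, the protease that cuts IGFBP4, did not exceed 1.04 TPM in any library.

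Igf2, the ligand of Igf2r and the preferred partner of IGFBP6, had 14.56, 8.41 and 6.41 TPM in dormant KO libraries and was listed at 0 in the other 9 libraries. The imprinted noncoding RNA H19, its neighbour on chromosome 7 at a distance of 72622 bp, showed the same pattern, between 4.6 and 7.90 TPM. Igf2 and H19 passed the filter only through the dormant KO libraries, the group where they are high, as did Grb10, Grb14 and Irs2, and the tests of these 5 genes are given as a description. Both were called higher in dormant KO cells against dormant WT cells (limma adjusted p = 3.92e-05 and 4.3e-05). Both were also called higher against growing KO cells (5.82e-05 and 6.27e-05) and in the interaction (0.00159 and 0.00168). Grb10, an adaptor that restrains insulin and IGF1 receptor signalling, was at 5.31, 5.39 and 6.44 TPM in dormant KO libraries and at most 0.37 TPM elsewhere (interaction adjusted p = 0.00327).

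Socs2, a feedback inhibitor of growth hormone signalling, was at 18.66, 51.04 and 35.70 TPM in dormant KO against 0, 0 and 0.37 TPM in dormant WT libraries (4.91, SE 0.76, limma adjusted p = 0.000634). The adaptor Grb14 and the receptor substrate Irs2 were the other genes called higher, with Irs2 at 1.46 to 1.91 TPM in dormant KO and no more than 0.06 TPM in dormant WT libraries. The 3 genes called lower were Rps6kb1, Eif4ebp1 and Foxo3. Rps6kb1, which encodes the S6 kinase, fell from 30.49, 61.78 and 44.79 to 3.68, 1.35 and 8.62 TPM (-3.25, SE 0.62, adjusted p = 0.00244). Eif4ebp1, a repressor of translation that mTOR switches off, fell from 395.69, 315.20 and 222.61 to 61.99, 99.86 and 114.82 TPM (-1.75, SE 0.26, adjusted p = 0.000478). Foxo3, a transcription factor that AKT keeps out of the nucleus, fell from 12.36, 29.39 and 26.77 to 3.39, 6.52 and 5.90 TPM (-1.88, SE 0.50, adjusted p = 0.017).

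Between dormant and growing cells of KO hosts 5 of these genes (14.3%) were higher and 3 (8.57%) lower, beside 8.31% and 9.48% of all genes. Those higher were Igf2, H19, Grb10, Grb14 and Irs2, which the filter let in through the dormant KO libraries alone, so their count is no result, and those lower were Htra3 (-4.12, limma adjusted p = 0.0199), Rps6kb1 and Eif4ebp1. In the interaction 4 (11.4%) were higher and 1 (2.86%), Rps6kb1 (-3.07, limma adjusted p = 0.0462), was lower, beside 6.18% and 3.91% of all genes. The 4 were Igf2, H19, Grb10 and Irs2, to which the same limit applies. Limma called 0 of 35 genes between growing KO and growing WT cells (2, or 5.71%, at an unadjusted p under 0.05, beside 7.53% of all genes). It called 0 of 35 between dormant and growing cells of WT hosts (6, or 17.1%, at an unadjusted p under 0.05, beside 23.9% of all genes).

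**Figure D4:**
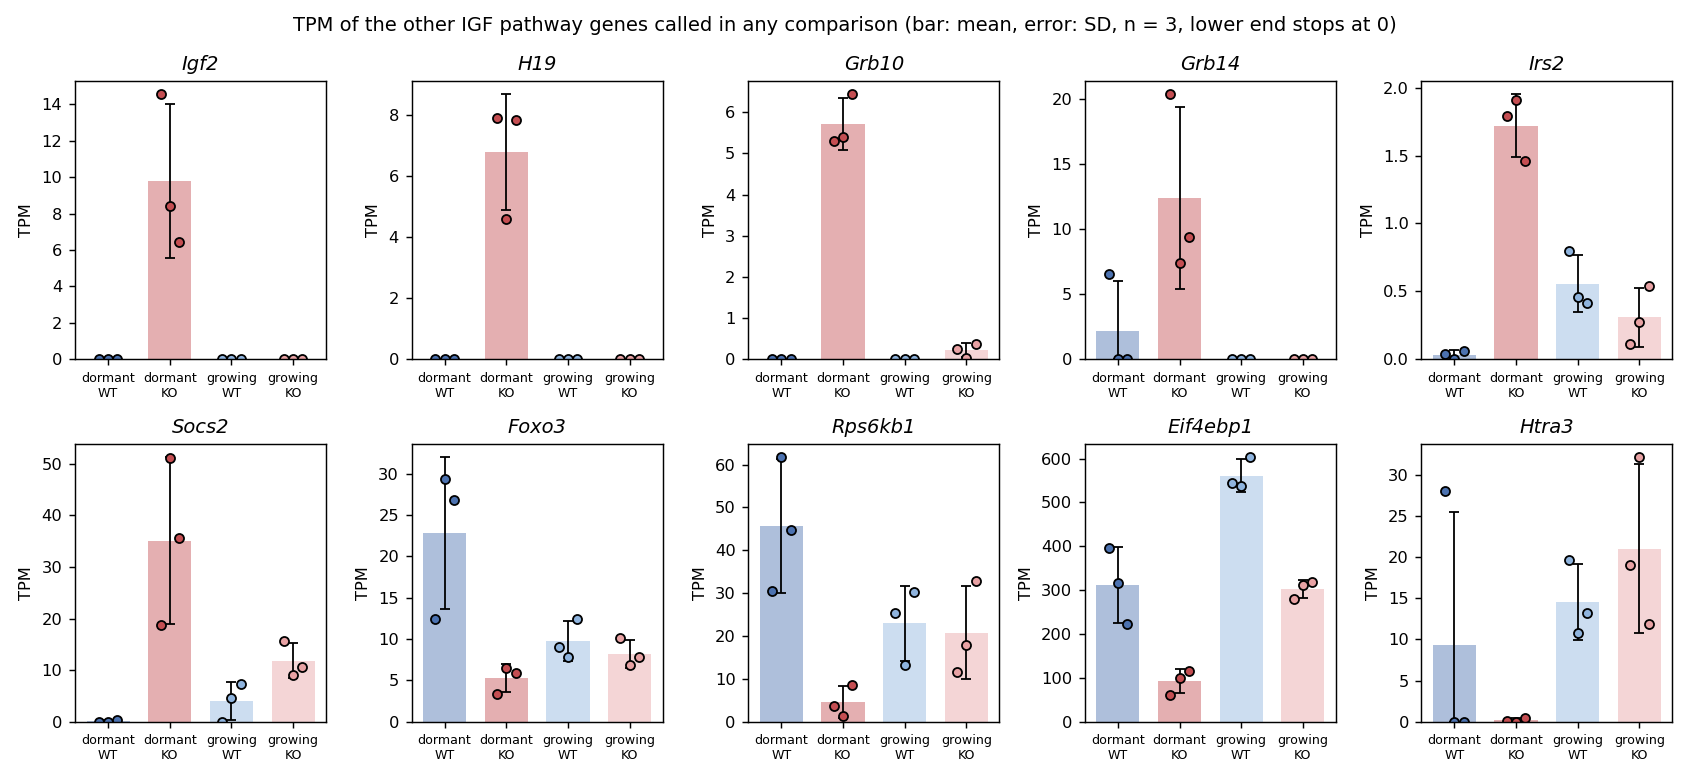
TPM (vertical axes, a separate scale for each gene) of the 10 further IGF pathway genes called in any comparison, with the 3 libraries of each group (points), their mean (bar) and SD (line). Igf2, H19, Grb10, Grb14, Irs2 and Socs2 are highest in the dormant KO group, with Igf2 and H19 at 0 in the other 9 libraries, and Foxo3, Rps6kb1 and Eif4ebp1 are lowest there.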

How the data were processed

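RNA was measured in 12 libraries of sorted D2A1 cells, 3 for each combination of state (dormant or growing) and host (WT or Tgfbr2 KO), grouped by the labels. Reads were trimmed (Cutadapt), aligned to mm10 (STAR) and turned into gene levels by RSEM on GENCODE annotation; the submitters' notes name Cutadapt 1.18, STAR 2.5.2b and RSEM 1.3.3, and the labels name a TruSeq kit where the methods name a full-length protocol for small inputs. The authors deposited the values as TPM, which keeps no record of depth, so the reads behind a value are unknown and no counting interval is given; precision is the spread between 3 libraries. A further 30 per-sample columns could not be mapped to labelled samples and were not used. The study gives 3 mice per group, but the labels tie no library to an animal, so p-values measure the spread between libraries.

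TPM was transformed to log2(TPM + 1), with no scaling. Genes at 1 TPM or more in at least 3 libraries were tested (13002 of 25916 above 0). limma 3.58.1 (R 4.3.3, eBayes with trend) fitted 1 mean per group (8 residual degrees of freedom) and 5 contrasts, with Benjamini-Hochberg adjustment over all genes tested. The script was tested on simulated data. The 9 genes, the 50 pathway genes and the marker lists were chosen with earlier results of these data known. All 9 genes are named whatever their values, pathway genes by the largest called differences (Irs2, and genes named for being at 0 or for cutting IGFBP4, were added after their values were seen), and like genes as the 3 with the highest r. Alternatives were other pseudocounts (0.1 and 5), no filter or a minimum of 5 TPM, median-ratio scaling, quantile normalization, a fit of the compared groups only, array weights, a replicate block and leaving out each library. Coordinates are from GENCODE on GRCm38, and promoter windows from RefSeq on GRCm38.p6, in which all 9 genes were found by symbol.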

Additional observations from a re-analysis of the deposited data

Results flagged for a closer look

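The dormant against growing difference was not the same in KO and WT hosts for 4 of the 9 genes, by the interaction test of limma. Of the 9 genes 3 were called higher and 1 lower, beside 6.18% and 3.91% of all genes tested. Adjusted p was 5.89e-05 for Igfbp6, 0.000841 for Igfbp7 and 0.0027 for Igfbp5, which were higher in dormant than in growing cells of KO hosts in all 3 libraries of each group. It was 0.0153 for Igfbp4, which was lower in all 3 dormant KO libraries and overlapped between the states in WT hosts. In the same interaction 7 of 8 mesothelial, 7 of 8 alveolar type 1, 7 of 10 alveolar type 2, 5 of 12 endothelial and 4 of 12 fibroblast genes were called higher, and the part of those cells in these 4 results was not tested. Some of those markers passed the filter only with the dormant KO libraries, so nothing is read from their counts.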

How the results depend on the processing

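Of 378 results for single genes under other settings, 341 kept their direction and their side of the threshold, as did 490 of 528 with 1 library left out. The calls of Igfbp5, Igfbp6 and Igfbp7 in dormant KO cells, against dormant WT, against growing KO and in the interaction, held in all of these fits, as did those of Igf2r and Igfbp4 against dormant WT cells. The number of the 9 genes called between growing KO and growing WT cells, 1, became 2 with a pseudocount of 0.1 or no filter (Igfbp5 and Igfbp7), 2 with the compared groups only (Igf1 and Igfbp7, not Igfbp5), 3 with array weights (these 3 genes) and 0 with a pseudocount of 5, quantile normalization or the replicate block, and 0 to 2 with 1 library left out. Over all genes the 127 calls between growing KO and growing WT cells became 308 with the compared groups only and 516 with array weights. They were 86 to 134 in the other settings just named, and 66 to 163 with 1 library left out. Between dormant and growing cells of WT hosts 0 of the 9 genes were called with array weights (Igf2r lost, limma adjusted p = 0.0861). With 1 library left out 0 to 1 were called there. Over all genes the 977 calls of that comparison became 310 with array weights and 447 to 1918 with 1 library left out. Same-numbered libraries did not deviate together (r from -0.0147 to 0.0206 over 18 pairs), so the numbers do not pair samples; with the replicate block the counts were 7, 0, 1, 6 and 4 in place of 7, 1, 1, 5 and 4, with Igfbp5 lost between growing groups (adjusted p = 0.0792) and Igfbp2 gained between the states in KO hosts (0.0498).

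Differences that changed sign were small or uncalled. The Igf1 interaction (-0.11) was 0.12 with a pseudocount of 5, 0.50 with median-ratio scaling, 0.080 with quantile normalization, and between -0.81 and 1.296 with 1 library left out; the Igf1r interaction (0.12) was -0.028 with a pseudocount of 5, -0.95 with quantile normalization, -0.0014 with array weights and between -0.46 and 0.47 with 1 library left out. Between the states in WT hosts, quantile normalization gave 0.23 for Igfbp2 and 0.25 for Igfbp7, and leaving out 1 library gave -0.31 to 1.79 for Igf1 and -0.12 to 0.73 for Igfbp4, the lowest of each without dormant WT replicate 1. Igf1r between dormant groups was 0.0079 with median-ratio scaling. The Igf1 call between dormant groups was gained with median-ratio scaling (adjusted p = 0.0262) and quantile normalization (0.029), and the Igfbp4 interaction was lost with quantile normalization (0.0669); these causes were not tested. Scaling moved all genes: the median dormant KO against WT difference of 0.17 became 0.50 with median-ratio scaling and -0.14 with quantile normalization, and the share of calls that were higher, 57.9%, became 74.0% and 50.1%. That share went from 24.6% to 50.6% (quantile) between the states in WT hosts, from 46.7% to 69.2% (median-ratio) and 56.9% (quantile) in KO hosts and from 61.2% to 79.1% (median-ratio) in the interaction. A minimum of 5 TPM removed Igf1r and Igfbp3, so they have no value there, nor has Igfbp3 where both WT groups are at 0. A fit of the compared groups only was not made for the interaction, which uses all groups.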
